A study of Mus musculus with 18 samples.

Results

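The genes described are 9 inhibitory checkpoint receptors of T cells, taken as a named list: Pdcd1 (PD-1), Ctla4 (CTLA-4), Havcr2 (TIM-3), Lag3 (LAG-3), Tigit, Cd160, Btla, Cd96 and Vsir (VISTA). They are 9 of 49671 gene models in the count tables, and all 9 passed the filter on low counts. The libraries hold RNA of CD8+ and of CD4+ T cells, flow sorted from subcutaneous tumors of B6 mice 12 days after 1000000 B16f10-OVA melanoma cells were injected. This mouse line makes ovalbumin as a model antigen. There were 6 groups of 3 libraries, each from a pool of 2 to 3 tumors. Floxed cells came from mice with the conditional miR-155 allele and no Cre. Deficient cells came from mice with the same allele and CD4cre, a Cre transgene that T cells of both types switch on during development, so other cells of these tumors keep the gene. Treated cells came from deficient mice given antibodies to PD-1/PD-L1 and CTLA-4, an immune checkpoint blockade (ICB), into the peritoneum on days 3, 6 and 9. All groups carry the floxed allele, and floxed mice given the antibodies were not analysed here. The labels give a 250 ul volume and concentrations of 1, 1 and 0.4 mg/ml, without stating which belongs to which antibody or day. They also do not say whether CD8 and CD4 libraries share tumors, so p-values measure only the spread between these libraries.

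Checkpoint receptors dampen T cell activation after they bind ligands on tumor or antigen-presenting cells. PD-1 recruits tyrosine phosphatases to the antigen receptor complex, and CTLA-4 takes the CD80 and CD86 ligands away from the costimulatory receptor CD28. Their transcripts rise when antigen is met, and persistent antigen in a tumor keeps several of them high in the state called T cell exhaustion. The microRNA miR-155 is induced upon T cell activation and lowers transcripts that carry a match to its seed.

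The mature miR-155-5p and the matches to its seed in the receptor transcripts are shown, because the groups differ in this microRNA. The seed (bases 2 to 8) is in capitals in the microRNA (RefSeq, GRCm38.p6, chr16:84714143-84714165, plus strand), and the complementary match is in capitals in each 30-base target site (GRCm38, longest annotated 3' end of the transcript). The sites are at chr1:60914968-60914997 (plus strand, Ctla4), chr16:45252858-45252887 (plus strand, Btla) and chr16:46035671-46035700 (minus strand, Cd96).
miR-155-5p: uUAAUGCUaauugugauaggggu
Ctla4 site: cataaggatatAGCATTAtggtgtggggtc
Btla site: aaatttgttccAGCATTAttttcatggtta
Cd96 site: agatgtaaataAGCATTAgagaataaagcg
Of the 9 receptor transcripts, these 3 held a match (AGCATTA or GCATTAA), at position 262 of 1115 bases in Ctla4, 2272 of 2295 in Btla and 184 of 216 in Cd96. Of all 12100 tested genes with an annotated 3' end, 14.1% held one. A match is a description of the sequence and was not tested as a site. In deficient CD8 cells, Btla was higher, Ctla4 lower and Cd96 not called, as described for each receptor.

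The labels were checked against transcripts before any comparison. Total counts per library ran from 3198435 to 11645432. Mir155hg, the host transcript of miR-155, was at 20.5, 19.2 and 9.08 CPM (counts per 1000000 after TMM scaling of library sizes) in floxed CD8 cells and at 0.236, 0.894 and 1.9 in deficient CD8 cells. The labels do not say which bases the Cre removes, so this checks the host transcript alone. Cd4 was at most 3.14 CPM in CD8 libraries. Cd8a was at 14.6, 149.7 and 142 CPM in the floxed CD4 libraries and at 0.26, 0.136 and 0.283 in the deficient CD4 libraries, so floxed CD4 replicates 2 and 3 held CD8 transcripts. In treated CD8 replicate 2, 1 gene model took 24.61% of counts.

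Transcripts of cells other than T cells were present and moved with the groups. Summed over 12 melanoma markers, CD8 libraries held 179 ± 23.2 CPM (SD, n = 3) in floxed samples, 2586 ± 1019.9 in deficient ones and 871 ± 761 in treated ones. The 16 macrophage and monocyte markers summed to 1263 ± 759, 2313 ± 798 and 1173 ± 81.9 CPM in the same CD8 groups, and to 19701 ± 7386, 5873 ± 1017 and 5646 ± 968 CPM in the CD4 groups in that order. The melanoma sums of the CD4 groups were 339.7 ± 292, 3375 ± 1329 and 1042 ± 866. In the CD8 groups, again in that order, the 5 T cell markers summed to 2495 ± 271, 2096 ± 86.1 and 3084 ± 156 CPM, and Cd8a with Cd8b1 to 1961 ± 206, 1069 ± 93 and 1627 ± 162. No T cell, melanoma or macrophage marker was at 0 in a group. Fewer cells of a type and less RNA per cell cannot be told apart in such bulk samples.

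**Figure D1:**
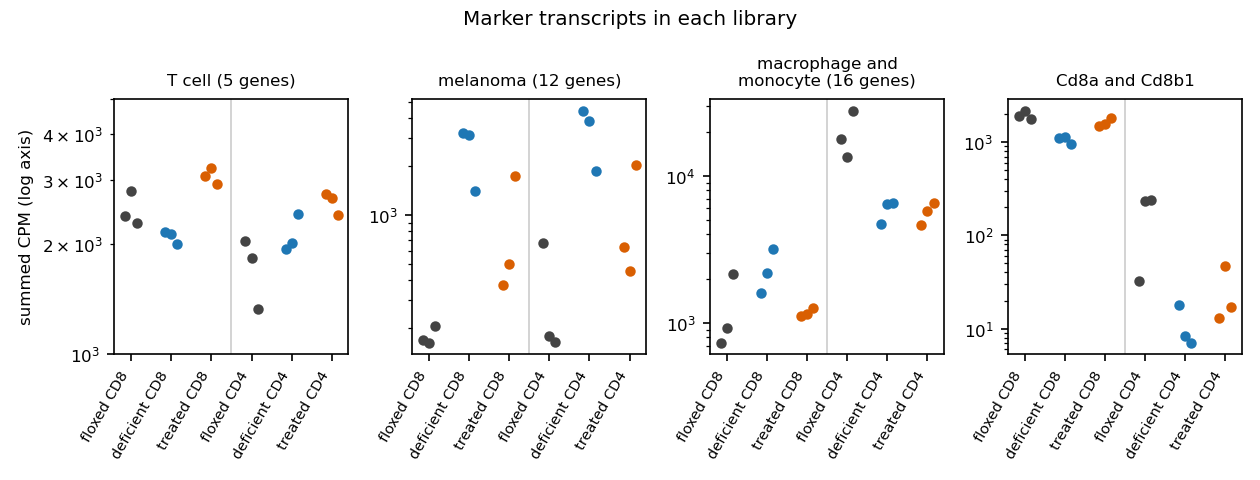
Summed CPM (log axes) of marker lists in each of the 18 libraries, by group; each point is 1 library. Deficient libraries hold more melanoma transcripts than floxed ones in both cell types, and floxed CD4 libraries hold the most macrophage and monocyte transcripts.

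Compared per length (RPKM, CPM per kilobase of the gene length in the files), Pdcd1 was the most abundant of the 9 in every CD8 group, at 421 ± 57.4 in floxed, 131 ± 11.6 in deficient and 416 ± 24 in treated cells (SD, n = 3). Ctla4 was the most abundant in every CD4 group, at 478 ± 140.1, 587 ± 25.3 and 486 ± 98.8 RPKM. Pdcd1 made up 39.4 ± 3.02% of the summed RPKM of the 9 in floxed CD8 cells, and Ctla4 50.2 ± 7.7% in floxed CD4 cells. The sum itself was 1073 ± 151 RPKM in floxed CD8 samples, against 429 ± 34.6 (deficient) and 1089.7 ± 89.8 (treated), and 937 ± 138, 947 ± 33.5 and 964 ± 19.8 in the CD4 groups in that order. The summed level of deficient CD8 cells thus lay below that of every other group, while the CD4 groups overlapped. In floxed CD8 cells, Havcr2 was next at 198 ± 30.7 RPKM, and Btla was lowest at 11.5 ± 1.44. Within deficient CD8 cells the share of Cd96 was 20 ± 1.81%, against 8.59 ± 1.4% in floxed cells.

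**Figure D2:**
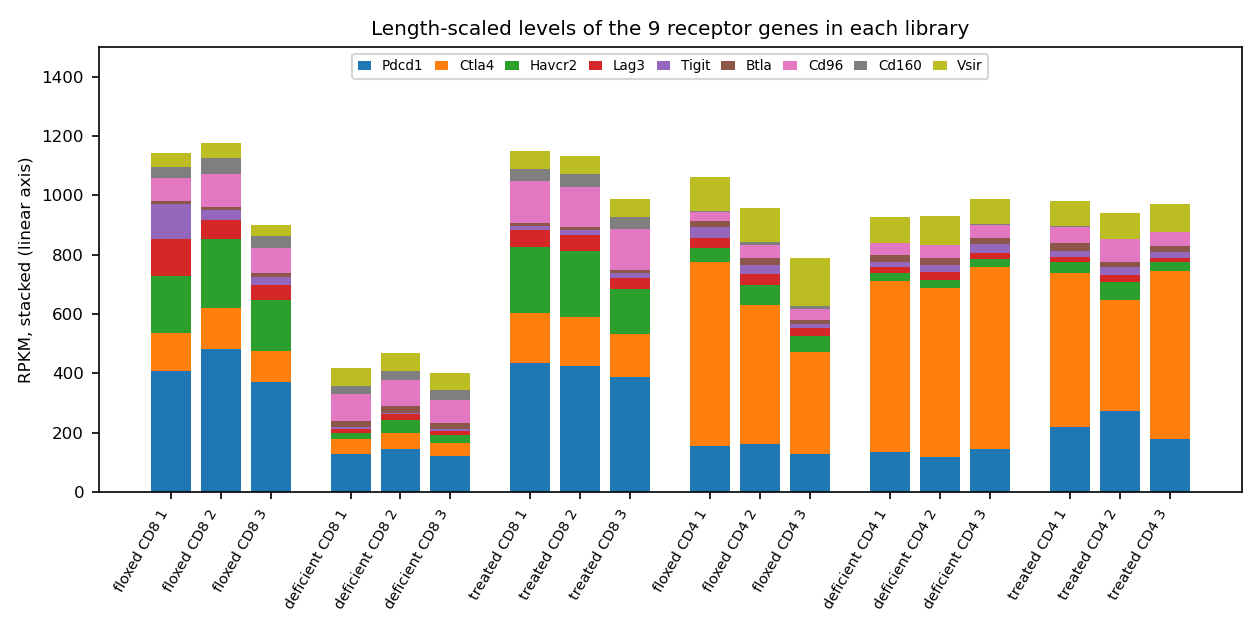
Stacked RPKM (linear axis from 0) of the 9 receptor genes in each of the 18 libraries. The deficient CD8 libraries reach 402 to 468 RPKM in all, and Ctla4 fills the largest share of every CD4 library.

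In CD8 cells, 2 of the 9 receptors were higher and 5 lower in deficient than in floxed samples, where 9.65% and 9.61% of the 14080 genes tested were called higher and lower. In treated against deficient CD8 cells, 5 were higher and 1 was lower, where 8.25% and 5.53% of all genes were. The median log2 fold change of the 9 was -1.30 for the deletion and 1.47 for the antibodies, against -0.01 and -0.03 over all genes tested. Both comparisons share the deficient libraries. A call is an edgeR quasi-likelihood adjusted p (Benjamini-Hochberg over all genes tested) under 0.05. With the melanoma and macrophage sums as covariates, 2 of the 7 calls of the deletion remained, those of Pdcd1 and Ctla4, and 4 of the 6 calls of the antibodies. The deletion values that lost their call were then -1.71 for Havcr2, -1.38 for Lag3, -2.57 for Tigit, 0.89 for Btla and 0.51 for Vsir. Over all genes tested, the covariate fit called 87 higher and 39 lower for the deletion, against 1359 and 1353. For the antibodies it called 343 and 255, against 1162 and 779. With scaling to 6 pan T cell genes instead of all genes, the counts were 7 and 5, while the median of all genes moved to 0.373 and -0.591 on the log2 scale. The split of all genes called then moved from 1359 higher and 1353 lower to 2807 and 346 for the deletion, and from 1162 and 779 to 220 and 4695 for the antibodies. Leaving out treated CD8 replicate 2, or any other library compared, ended none of the 6 antibody calls.

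In CD4 cells, 3 of the 9 were lower and 0 higher in deficient than in floxed samples, where 7.06% of all genes were called lower and 4.61% higher. DESeq2 and limma voom also called 0 higher, and 0 were higher at an unadjusted p under 0.05. Without floxed CD4 replicate 3, 1 of the 3 calls remained, and over all genes 247 were called higher and 536 lower, against 649 and 994. The median of the 9 was -0.33, against 0.01 over all genes tested. With the antibodies, 1 of the 9 was higher and 0 lower, where 0.0852% of all genes were called higher and 0.0568% lower. At an unadjusted p under 0.05, 3 were higher and 0 lower, and DESeq2 and limma voom each called 1 higher and 0 lower. Few genes of any kind were called there, 20 of 14080 in all. With pan T cell scaling, all genes called split into 356 higher and 1377 lower for the CD4 deletion, against 649 and 994, and into 4 and 24 for the antibodies, against 12 and 8. With covariates they split into 3 and 7 for the CD4 deletion and into 4 and 3 for the antibodies.

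**Figure D3:**
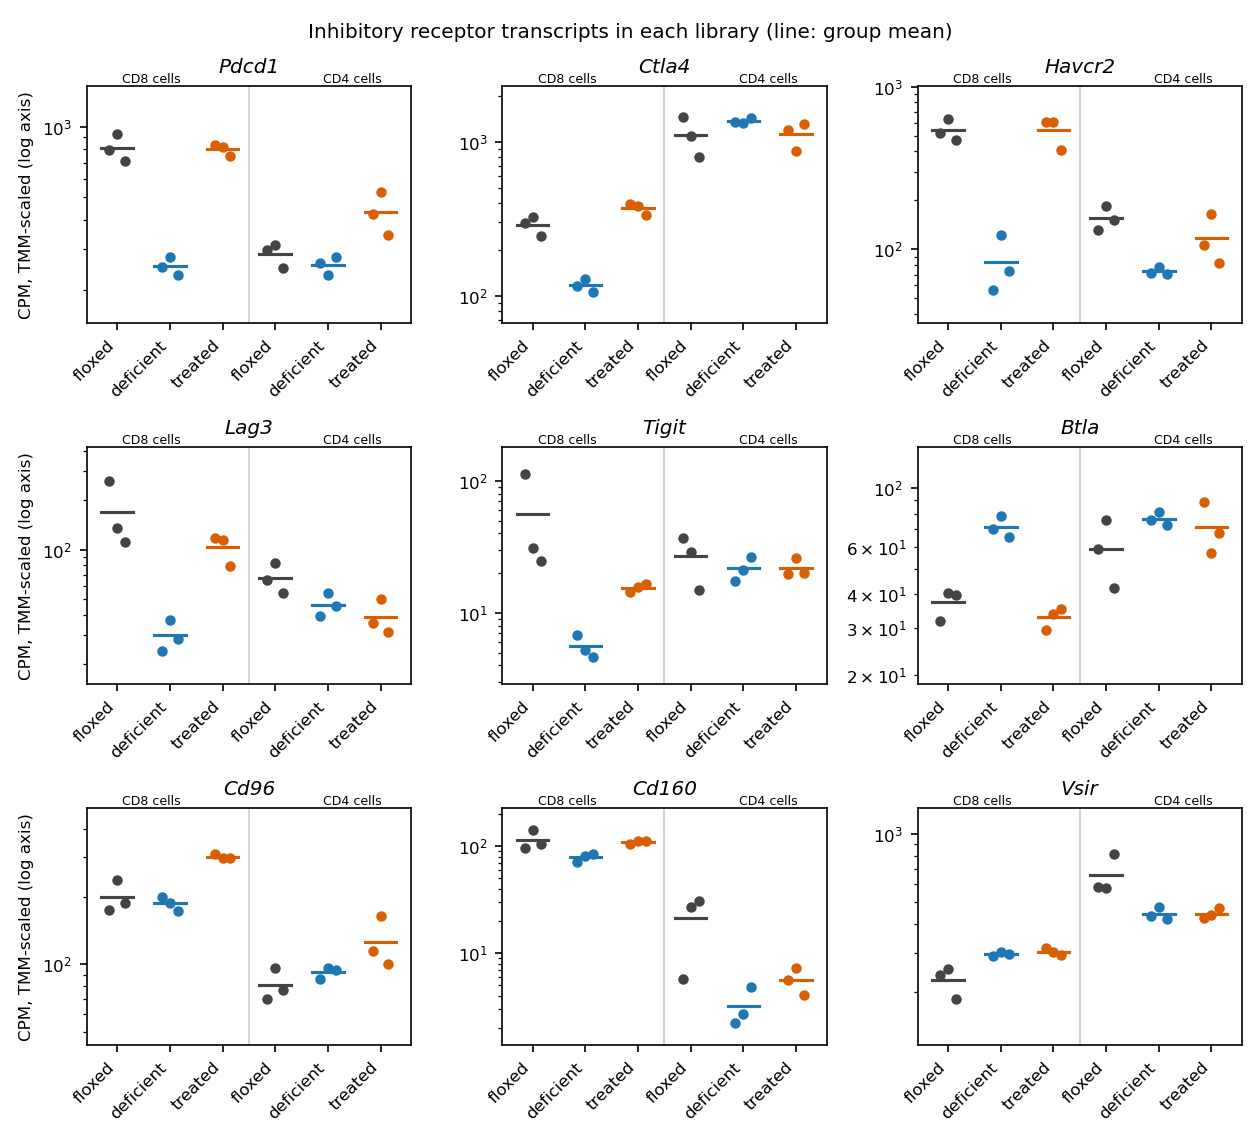
CPM on log axes in each library for the 9 receptor genes, with CD8 groups left and CD4 groups right of the grey line; points are libraries and lines the group means. Pdcd1, Ctla4, Havcr2 and Lag3 are lowest of the CD8 groups in deficient cells, where Btla is highest of them.

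The antibody target Pdcd1 stood at 791, 932 and 714 CPM in floxed CD8 libraries, while deficient libraries gave 251, 277 and 233 and treated ones 837, 821 and 749.9. All deficient libraries lay below every floxed and treated library, and floxed and treated libraries overlapped. The edgeR log2 fold change was -1.68 ± 0.15 (SE, adjusted p = 5.78e-07) for the deletion and 1.66 ± 0.15 (adjusted p = 7.04e-07) for the antibodies. Treated and floxed CD8 cells differed by -0.02, with a 95% interval from -0.31 to 0.28 on the log2 scale. In CD4 cells, Pdcd1 was at 296, 313 and 248 CPM in floxed libraries, against 262, 231 and 277 (deficient) and 422, 526 and 345 (treated). The floxed and deficient CD4 libraries overlapped, with a log2 fold change of -0.16 (interval from -0.45 to 0.14), and all treated CD4 libraries lay above them. The rise with antibodies in CD4 cells was 0.75 ± 0.14 (edgeR adjusted p = 0.0406), and the call held in 7 of 15 alternatives, whose values ran from 0.49 to 0.91. It was lost on leaving out deficient CD4 replicate 1, 2 or 3 or treated CD4 replicate 1 or 2, with covariates, with pan T cell scaling and with the 9 CD4 libraries fitted alone. Leaving out deficient CD4 replicate 1 or treated CD4 replicate 1 left 0 genes called of all tested. Without treated CD4 replicate 2, 2 genes were called higher and 0 lower, and without treated CD4 replicate 3, 71 and 35. In order of mean level, floxed and treated CD8 cells did not differ beyond their spread, nor did floxed CD4, deficient CD4 and deficient CD8 cells.

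Ctla4, the second antibody target, was at 296, 325 and 245 CPM in floxed CD8 libraries, against 116, 129 and 106 (deficient) and 394, 384 and 338 (treated). The 3 groups did not overlap. The log2 fold change was -1.30 ± 0.18 (edgeR adjusted p = 5.11e-05) for the deletion and 1.67 ± 0.18 (adjusted p = 7.27e-06) for the antibodies, and the value of 0.37 for treated against floxed cells was not called (adjusted p = 0.226). In CD4 cells, where CTLA-4 is a hallmark of regulatory T cells, Ctla4 was at 1450.4, 1089 and 799 CPM in floxed libraries, against 1346, 1323 and 1434 (deficient) and 1206, 873 and 1315 (treated). The floxed range covered the ranges of both other groups. The CD4 log2 fold changes were 0.30 for the deletion (interval from -0.07 to 0.66) and -0.27 for the antibodies (from -0.64 to 0.09). The 8 regulatory T cell markers summed to 1856 ± 421, 2319 ± 227 and 2482 ± 122 CPM in the CD4 groups in the same order, and their part in the Ctla4 level was not tested. These markers also summed to 794 ± 155, 713 ± 44.7 and 785 ± 4.41 CPM in the CD8 groups, where Foxp3 was at most 1.36 CPM. In CD4 cells, Foxp3 was at 62.6, 52.8 and 32.3 CPM (floxed), 63.6, 60.8 and 80 (deficient) and 63.7, 73.2 and 62.2 (treated).

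**Figure D4:**
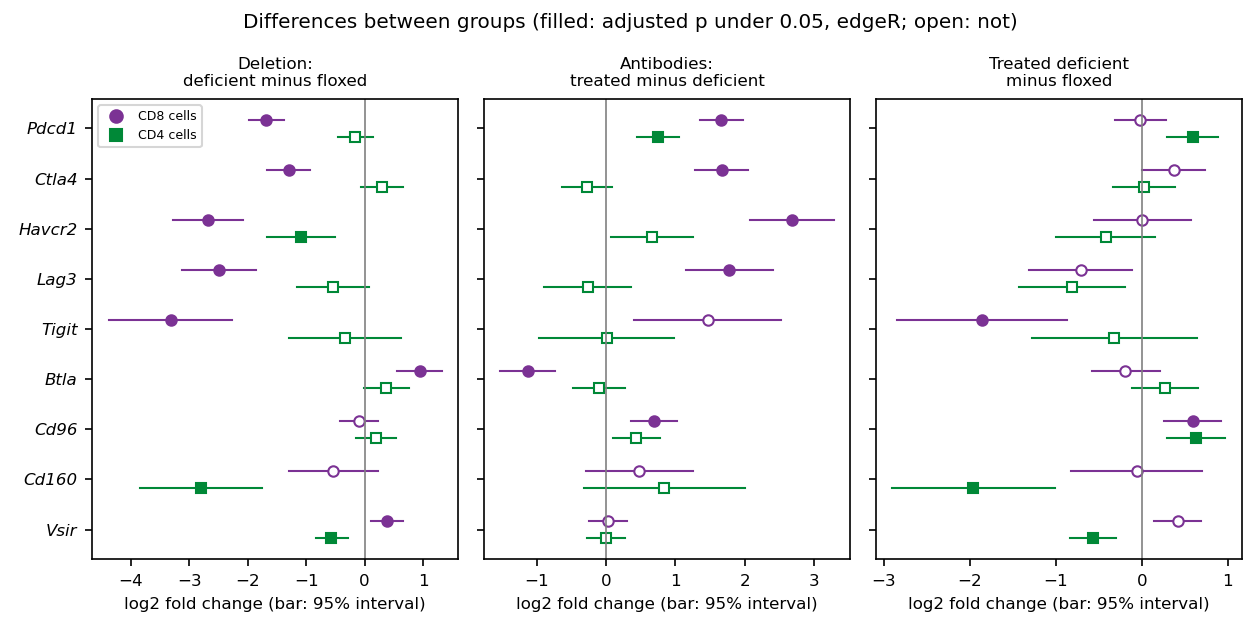
Log2 fold change of each receptor with its 95% interval for the deletion, the antibodies and treated against floxed cells, in CD8 (circles) and CD4 cells (squares); filled symbols have an edgeR adjusted p under 0.05. With the deletion 5 filled circles lie left of 0, and with the antibodies 1, that of Btla, does.

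TIM-3, encoded by Havcr2, binds galectin-9 among other ligands and marks terminally exhausted T cells, and myeloid cells express it too. Havcr2 was at 518, 631 and 468 CPM in floxed CD8 libraries, against 56.2, 122 and 73.9 (deficient) and 608, 606 and 409 (treated). Deficient libraries lay apart from both other groups, which overlapped. The log2 fold change was -2.68 ± 0.28 (edgeR adjusted p = 1.9e-05) for the deletion and 2.68 ± 0.28 (adjusted p = 2.13e-05) for the antibodies. Treated against floxed CD8 cells gave 0.00, with an interval from -0.56 to 0.57. In CD4 cells, Havcr2 was at 132, 184 and 152 CPM in floxed libraries, against 71.7, 77.8 and 70.4 (deficient) and 106, 164 and 82.6 (treated). With the antibodies the CD4 value was 0.66 (interval from 0.08 to 1.25), not called (edgeR adjusted p = 0.368). With no filter on low counts it was called (0.68, edgeR adjusted p = 0.00142). Havcr2 was lower in deficient than in floxed CD4 cells by -1.09 ± 0.28 (edgeR adjusted p = 0.0175), without overlap. The call was lost without floxed CD4 replicate 2, without floxed CD4 replicate 3, without deficient CD4 replicate 1 and with covariates, and the log2 fold change ranged from -1.35 to -0.53 over the alternatives. The macrophage and monocyte sum was also higher in the floxed CD4 libraries, and its part in the result was not tested beyond the covariate fit. Floxed CD4 replicates 2 and 3, with Havcr2 at 184 and 152 CPM, had Cd8a at 149.7 and 142 CPM. Replicate 1, with Havcr2 at 132 CPM, had Cd8a at 14.6 CPM. The part of CD8 cells in the result was not tested.

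LAG-3, which binds major histocompatibility class II, was at 263, 135 and 111 CPM of Lag3 in floxed CD8 libraries, against 24.2, 37.4 and 28.7 (deficient) and 117, 114 and 79.7 (treated). Floxed replicate 1 stood highest, and deficient libraries lay below all others. The log2 fold change was -2.49 ± 0.30 (edgeR adjusted p = 3.95e-05) for the deletion and 1.78 ± 0.30 (adjusted p = 0.000768) for the antibodies, and covariates ended both calls (adjusted p = 0.177 and 0.0811). Without floxed CD8 replicate 1 the value for the deletion was -2.04. Treated against floxed CD8 cells gave -0.71, which was not called (edgeR adjusted p = 0.146). In CD4 cells, Lag3 was at 65.1, 82.6 and 54 CPM in floxed libraries, against 39.5, 54 and 45 (deficient) and 35.9, 50 and 31.3 (treated). Lag3 was not called in CD4 cells with the deletion, at -0.55 (interval from -1.16 to 0.07), or the antibodies, at -0.26 (from -0.89 to 0.36). It was called lower with the deletion under pan T cell scaling (-0.77) and with no filter on low counts (-0.55), at edgeR adjusted p = 0.0454 and 0.0292. Treated against floxed CD4 cells gave -0.81 without overlap, not called (edgeR adjusted p = 0.0844). That difference was called lower in 5 of 15 alternatives, DESeq2 among them.

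TIGIT and CD96 compete with the activating receptor CD226 for nectin-family ligands. Tigit was at 113, 31 and 24.6 CPM in floxed CD8 libraries, against 6.84, 5.24 and 4.6 (deficient) and 14.4, 15.7 and 16.5 (treated). Floxed replicate 1 lay far above the other floxed libraries, and the 3 groups did not overlap. The log2 fold change was -3.32 ± 0.50 (edgeR adjusted p = 0.000295) for the deletion. Without floxed CD8 replicate 1 the value was -2.33. The antibodies gave 1.47, not called (edgeR adjusted p = 0.0622, interval from 0.41 to 2.52, called by DESeq2, with no filter and with the replicate block), and treated cells remained lower than floxed cells by -1.86 ± 0.46 (adjusted p = 0.0329). That last call was lost without floxed CD8 replicate 1 (-0.84), without treated CD8 replicate 1, 2 or 3, with limma voom, with the 9 CD8 libraries fitted alone and with covariates. In CD4 cells Tigit ranged from 14.9 to 37.2 CPM over the 3 groups, with -0.33 (interval from -1.30 to 0.63) for the deletion and 0.01 (from -0.96 to 0.98) for the antibodies.

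Cd96 was at 174, 237 and 187 CPM in floxed CD8 libraries, against 200.1, 188 and 172 (deficient) and 309.8, 296 and 298 (treated). Floxed and deficient libraries overlapped, with -0.10 for the deletion (interval from -0.43 to 0.23), and treated libraries lay above both. The log2 fold change with the antibodies was 0.69 ± 0.16 (edgeR adjusted p = 0.00631), and it fell to 0.13 with pan T cell scaling and 0.38 with covariates, neither of them called. In CD4 cells, Cd96 was at 69.8, 96.4 and 76.6 CPM in floxed libraries, against 85.7, 96.6 and 94.7 (deficient) and 114, 164 and 100.1 (treated). The CD4 change with the antibodies was 0.44, not called (edgeR adjusted p = 0.3), and treated exceeded floxed CD4 cells by 0.63 ± 0.16 (adjusted p = 0.014).

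BTLA and CD160 share a ligand, HVEM, encoded by Tnfrsf14. Btla was at 31.9, 40.4 and 39.7 CPM in floxed CD8 libraries, against 70.4, 78.5 and 65.7 (deficient) and 29.5, 33.9 and 35.2 (treated). Deficient libraries lay above both other groups, which overlapped. It was higher by 0.94 ± 0.19 with the deletion (edgeR adjusted p = 0.00133) and lower by -1.13 ± 0.19 with the antibodies (adjusted p = 0.000421), the 1 receptor of the 9 called lower with the antibodies. Covariates ended the call of the deletion (0.89, edgeR adjusted p = 0.293) and not that of the antibodies. In CD4 cells Btla ranged from 42.3 to 89.1 CPM, with 0.37 (interval from -0.02 to 0.75) for the deletion and -0.10 (from -0.47 to 0.28) for the antibodies.

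Cd160, found on cytotoxic lymphocytes, was at 95.7, 142 and 104 CPM in floxed CD8 libraries, against 70.7, 80.2 and 84.6 (deficient) and 105, 112 and 112 (treated). All deficient CD8 libraries lay below every floxed and treated one. The deletion gave -0.54 (interval from -1.30 to 0.22) and the antibodies 0.48 (from -0.29 to 1.25), neither of them called. With the 9 CD8 libraries fitted alone, both were called, at -0.55 and 0.49 (edgeR adjusted p = 0.0194 and 0.0427). The deletion was also called with no filter on low counts (-0.54, edgeR adjusted p = 0.0333). In CD4 cells, Cd160 was at 5.72, 27.3 and 30.6 CPM in floxed libraries, against 2.21, 2.72 and 4.81 (deficient) and 5.67, 7.23 and 4.11 (treated). The value with the deletion was -2.80 ± 0.49 (edgeR adjusted p = 0.00207). The floxed CD4 libraries with the higher Cd160 were those with Cd8a at 149.7 and 142 CPM, and the part of CD8 cells in this result was not tested. With covariates the value was -1.28 (edgeR adjusted p = 0.689).

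VISTA, encoded by Vsir, is expressed by T cells and more strongly by myeloid cells. Vsir was at 239, 254 and 187 CPM in floxed CD8 libraries, against 289, 301 and 297 (deficient) and 315, 302 and 292 (treated). It was higher by 0.38 ± 0.13 with the deletion (edgeR adjusted p = 0.0449), and the floxed and deficient libraries did not overlap. The call held in 7 of 15 alternatives, with values from 0.27 to 0.79, and was lost on leaving out any deficient CD8 library or floxed CD8 replicate 1 or 3, with no filter on low counts, with the replicate block and with covariates. The antibodies gave 0.03 (interval from -0.24 to 0.31). In CD4 cells, Vsir was at 584, 577 and 815 CPM in floxed libraries, against 435, 477 and 421 (deficient) and 424, 438 and 469.7 (treated). It was lower by -0.57 ± 0.13 with the deletion (edgeR adjusted p = 0.00765), and the call was lost without floxed CD4 replicate 3 (-0.40), the library with the highest macrophage and monocyte sum (27849 CPM), and with covariates (-0.43).

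Of the 5 receptors called lower in deficient CD8 cells, the promoters of Pdcd1, Ctla4, Havcr2 and Tigit, and not that of Lag3, are shown for the 250 bases before the start (RefSeq, GRCm38.p6), at chr1:94052554-94052803 (minus strand), chr1:60908775-60909024 (plus strand), chr11:46454681-46454930 (plus strand) and chr16:43664185-43664434 (minus strand). Capitals mark matches, on either strand, to GGAAA (the NFAT core, present in 55.6% of 32851 promoters of that length), TGANTCA (AP-1, 6.75%) or AAAGGTCA (NR4A, 1.34%).
Pdcd1: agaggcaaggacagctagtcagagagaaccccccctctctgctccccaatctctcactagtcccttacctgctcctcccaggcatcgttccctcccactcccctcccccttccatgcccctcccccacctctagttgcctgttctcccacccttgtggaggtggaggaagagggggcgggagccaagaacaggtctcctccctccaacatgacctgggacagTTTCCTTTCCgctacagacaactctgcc
Ctla4: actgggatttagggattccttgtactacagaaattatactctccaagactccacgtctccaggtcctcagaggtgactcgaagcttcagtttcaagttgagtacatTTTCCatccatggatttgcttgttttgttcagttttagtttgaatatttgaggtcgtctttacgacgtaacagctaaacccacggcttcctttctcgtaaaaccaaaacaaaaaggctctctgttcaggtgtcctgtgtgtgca
Havcr2: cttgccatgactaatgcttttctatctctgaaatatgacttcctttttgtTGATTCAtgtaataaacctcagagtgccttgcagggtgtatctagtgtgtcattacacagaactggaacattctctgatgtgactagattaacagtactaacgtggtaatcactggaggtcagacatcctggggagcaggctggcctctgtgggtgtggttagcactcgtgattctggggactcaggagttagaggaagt
Tigit: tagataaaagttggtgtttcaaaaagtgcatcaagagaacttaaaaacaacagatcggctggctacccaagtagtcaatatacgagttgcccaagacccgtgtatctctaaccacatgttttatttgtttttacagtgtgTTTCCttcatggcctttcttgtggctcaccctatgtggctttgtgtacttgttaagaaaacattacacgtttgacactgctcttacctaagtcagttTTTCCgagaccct
The Pdcd1 promoter held 2 adjacent GGAAA matches, at 28 to 24 and 23 to 19 bases before the start. The Ctla4 promoter held 1 GGAAA match, at 144 to 140 bases. The Tigit promoter held 2 GGAAA matches, at 110 to 106 and 13 to 9 bases, and the Havcr2 promoter 1 AP-1 match at 200 to 194 bases. Among the others with an entry, 8 receptors in all, Cd96 held 4 GGAAA matches, Cd160 held 1, and Btla and Vsir held none of the 3 motifs. A match describes letters in this window only.

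Treated and floxed cells differ in genotype and antibodies together, and in CD8 cells 1 receptor, Cd96, was called higher and 1, Tigit, lower. The background was 2.69% of genes called higher and 2.32% lower, and the median of the 9 was -0.02. With pan T cell scaling, the split of all genes called was 97 higher and 365 lower in CD8 cells, against 379 and 327, and 153 and 4237 in CD4 cells, against 575 and 1137. Cd96 gave 0.59 ± 0.16 (edgeR adjusted p = 0.035), called in 9 of 15 alternatives and lost without floxed CD8 replicate 1 or 3 or treated CD8 replicate 1, 2 or 3 and with pan T cell scaling (0.43). Calls over all genes also fell without any of these libraries, to 90 higher and 21 lower without treated CD8 replicate 2. They rose to 678 and 825 without floxed CD8 replicate 2. In CD4 cells 2 were higher, Pdcd1 (0.59 ± 0.14) and Cd96, and 2 lower, Cd160 (-1.96 ± 0.44) and Vsir (-0.57 ± 0.13), where 4.08% and 8.08% of all genes were. Both higher calls were lost with pan T cell scaling, at 0.09 for Pdcd1 and 0.11 for Cd96, and both lower calls were made. That scaling also called Lag3 (-1.29, edgeR adjusted p = 0.000973) and Havcr2 (-0.95, adjusted p = 0.0152) lower in CD4 cells. With covariates 0 of the 4 calls of the main fit were made. All genes called then split into 20 higher and 54 lower in CD4 cells and into 233 and 106 in CD8 cells. Without floxed CD4 replicate 3, edgeR made 0 of these 4 CD4 calls, and the values were 0.50 for Pdcd1, 0.59 for Cd96 and -0.39 for Vsir. All genes called then split into 193 higher and 589 lower. Without treated CD4 replicate 2 edgeR made 2 of the 4, losing Pdcd1 and Cd96, where all genes called split into 403 and 898. The call of Cd96 was also lost without floxed CD4 replicate 1 and that of Cd160 without treated CD4 replicate 3.

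The difference between deficient and floxed cells was itself different in CD8 and CD4 cells for 7 of the 9 receptors, by edgeR's interaction test. The values of Pdcd1, Ctla4, Havcr2, Lag3 and Tigit were lower in CD8 than in CD4 cells, and those of Cd160 and Vsir higher. The background was 4.72% of genes lower and 6.89% higher. For Pdcd1 the difference was -1.52 ± 0.20 (edgeR adjusted p = 9.34e-05), and with covariates edgeR called 0 of the 7. Over all genes tested, the covariate fit called 108 higher and 43 lower, against 970 and 664. The call of Havcr2 was also lost with pan T cell scaling (-0.93, edgeR adjusted p = 0.0897), where Btla was called (1.16). The Cd160 call held in 12 of 21 alternatives and was lost without floxed CD8 replicate 1, deficient CD8 replicate 2 or 3, floxed CD4 replicate 2 or 3, or deficient CD4 replicate 1 or 2, and with limma voom. For the antibodies, 4 differences were called higher in CD8 cells, of Pdcd1, Ctla4, Havcr2 and Lag3, and 0 lower, where 0.575% and 0.227% of genes were called higher and lower. That of Ctla4 was 1.94 ± 0.25 (edgeR adjusted p = 0.000394), called in all 21 alternatives. That of Btla was -1.03 (interval from -1.58 to -0.49), not called (edgeR adjusted p = 0.0708). It was called lower in 5 of 21 alternatives, DESeq2 among them. Pan T cell scaling ended the calls of Pdcd1 (0.62, edgeR adjusted p = 0.277) and Havcr2 (1.72, adjusted p = 0.0552). Leaving out 1 library ended calls of Pdcd1, Havcr2 and Lag3: 1 call remained without deficient CD8 replicate 3, treated CD8 replicate 1 or 2, deficient CD4 replicate 3 or treated CD4 replicate 1 or 3, 2 remained without deficient CD8 replicate 1 or deficient CD4 replicate 2, and without deficient CD8 replicate 2 or deficient CD4 replicate 1 the call of Pdcd1 was lost. With pan T cell scaling, all genes called split into 2922 higher and 100 lower for the deletion difference, against 970 and 664, and into 20 and 37 for the antibody difference, against 81 and 32. With 1 library left out, the split for the antibody difference fell in every fit, to 36 and 13 without treated CD8 replicate 1.

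Between cell types, 5 receptors were higher and 3 lower in floxed CD8 than in floxed CD4 cells, where 18.9% and 20.2% of all genes were. Higher were Pdcd1 (1.51 ± 0.15), Havcr2 (1.79 ± 0.27), Lag3 (1.33 ± 0.29), Cd160 (2.44 ± 0.39) and Cd96 (1.30 ± 0.16), and lower were Ctla4 (-1.95 ± 0.18), Vsir (-1.54 ± 0.13) and Btla (-0.67 ± 0.19), the last not called without floxed CD4 replicate 2. With covariates 2 of the 8 calls were made, of Ctla4 and Vsir, and Lag3 lay at -0.65, not called (edgeR adjusted p = 0.681). All genes called then split into 297 higher and 398 lower, against 2662 and 2844. In deficient samples 2 were higher in CD8 cells, Cd160 and Cd96, and 3 lower, Ctla4, Tigit and Vsir, where 6.21% and 9.39% of all genes were. The Tigit call there was lost without deficient CD8 replicate 2 or 3 and with limma voom, and the Vsir call with pan T cell scaling (-0.32). Pdcd1 lay at -0.02 there (interval from -0.31 to 0.28). In treated samples, 5 were again higher and 3 lower, where 9.36% and 11% of all genes were, with Pdcd1 at 0.90 ± 0.14. With covariates the calls of Pdcd1 (0.42, edgeR adjusted p = 0.299), Lag3 (0.35, adjusted p = 0.69) and Vsir (-0.55, adjusted p = 0.203) were lost there, and pan T cell scaling also ended that of Vsir (-0.59, adjusted p = 0.0628). All genes called with covariates split into 514 higher and 777 lower there, against 1318 and 1552. With pan T cell scaling the genes called higher and lower numbered 1093 and 4190 in floxed samples (2662 and 2844 with TMM), 1445 and 517 in deficient samples (874 and 1322) and 659 and 1194 in treated samples (1318 and 1552). Over the 6 groups, the highest group mean was 35.2 times the lowest for Cd160 and 2.33 times for Btla.

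The list of other inhibitory surface molecules holds receptors, the ligands Cd200 and Pdcd1lg2 (also counted among the ligands) and the ectoenzymes Entpd1 and Nt5e. Of 20 tested, 4 were higher and 7 lower in deficient than in floxed CD8 cells, where 9.65% and 9.61% of all genes were. With the antibodies 10 were higher and 4 lower, where 8.25% and 5.53% of all genes were. Their medians were -0.27 and 0.56, against -0.01 and -0.03 over all genes tested. Entpd1, the ectonucleotidase CD39, went from 147 ± 16.6 CPM in floxed to 30.2 ± 10.7 in deficient and 159.7 ± 10.7 in treated CD8 cells (log2 -2.29 ± 0.18 and 2.40 ± 0.18). Cd244a, a SLAM family receptor, gave -1.58 ± 0.21 and 2.13 ± 0.21, and Slamf6, a receptor of less differentiated cells, was higher with the deletion by 1.12 ± 0.14. Klrg1, which marks short-lived effector cells, rose from 3.02 ± 1.53 to 23.7 ± 1.19 CPM with the antibodies. In CD4 cells 6 of the 20 were lower with the deletion, where 7.06% of all genes were. Among them were Lair1 (-1.36 ± 0.17), Cd244a (-0.78 ± 0.22) and Entpd1 (-0.59 ± 0.17). The macrophage and monocyte sum went from 19701 ± 7386 to 5873 ± 1017 CPM between these CD4 groups. Its part in these values was not tested beyond the covariate fit, which called 3 genes higher and 7 lower of all 14080. With the antibodies edgeR called 0 of the 20, and 3 were higher and 2 lower at an unadjusted p under 0.05. DESeq2 called 1 higher and 1 lower there, and limma voom 1 lower.

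Costimulatory molecules drive activation, and the list holds receptors and the ligands Cd40lg and Tnfsf14. Of 11 tested in CD8 cells, 3 were lower with the deletion (median -0.45), where 9.61% of all genes were. With the antibodies 5 were higher (median 0.44), where 8.25% of all genes were. Tnfrsf9 (4-1BB) was at 592 ± 120.1 CPM in floxed CD8 libraries, against 255 ± 48.8 (deficient) and 823 ± 109.8 (treated). Icos gave -1.15 ± 0.21 and 0.90 ± 0.21, and Cd28 -0.90 ± 0.19 and 0.77 ± 0.19. In CD4 cells 2 were higher with the deletion, Tnfrsf9 (0.80 ± 0.20) and Tnfrsf18 (0.58 ± 0.18), where 4.61% of all genes were. With the antibodies edgeR called 0 of the 11, and 2 were higher and 1 lower at an unadjusted p under 0.05. DESeq2 called 1 higher there and limma voom 0.

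Transcription factors known to act on checkpoint receptor genes were mixed. Of 21 tested, 3 were higher and 8 lower with the deletion in CD8 cells (median -0.65), where 9.65% and 9.61% of all genes were. With the antibodies 5 were higher and 2 lower (median 0.38), where 8.25% and 5.53% of all genes were. Tox, a factor of the exhaustion program, was at 107 ± 45.1 CPM in floxed and 22.9 ± 2.54 in deficient CD8 cells (-2.23 ± 0.27), and it was not called with the antibodies. Id2, a regulator of effector cells, gave -1.26 ± 0.16 and then 1.84 ± 0.16, while Maf was higher with the deletion by 1.51 ± 0.19. With the antibodies Prdm1 (Blimp-1) gave 1.94 ± 0.28 and Id3, kept in memory-like cells, -2.05 ± 0.37. In CD4 cells 1 was higher and 3 lower with the deletion, where 4.61% and 7.06% of all genes were. Hif1a (0.57 ± 0.14), Tox (-1.14 ± 0.28) and Maf (-0.54 ± 0.16) were among them.

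Ligands and proximal effectors complete the pathway. Of 15 ligand genes tested, 2 were higher and 1 lower with the deletion in CD8 cells, near the 9.65% and 9.61% of all genes. With the antibodies 4 were higher and 1 lower, where 8.25% and 5.53% of all genes were. Cd80, a ligand of CTLA-4 and CD28, was at 25.2 ± 11.1 CPM in floxed CD8 libraries, against 7.28 ± 1.22 (deficient) and 20.1 ± 5.51 (treated), and Cd274, which encodes PD-L1, was higher by 0.68 ± 0.23 with the deletion (edgeR adjusted p = 0.0496). Nectin2 went from 0.629 ± 0.381 to 3.95 ± 1.71 CPM with the deletion, where the melanoma sum went from 179 ± 23.2 to 2586 ± 1019.9 CPM. With the antibodies, Lgals3, a galectin also abundant in macrophages, rose by 1.26 ± 0.20 and Pdcd1lg2, which encodes PD-L2, by 0.75 ± 0.21. In CD4 cells, Lgals3 was lower with the deletion by -1.90 ± 0.20, where the macrophage and monocyte sum went from 19701 ± 7386 to 5873 ± 1017 CPM. Nectin3 and Igsf11 were called higher there, at 3.33 ± 1.55 and 3.75 ± 2.59 CPM in deficient cells and at 0 counts in the floxed CD4 libraries, which allows up to 3 counts in each. The melanoma sum went from 339.7 ± 292 to 3375 ± 1329 CPM between these CD4 groups. The part of melanoma cells in the values of Nectin2, Nectin3 and Igsf11 was not tested beyond the covariate fit. Of the 12 receptor-proximal effectors, 3 were lower in deficient than in floxed CD8 cells, where 9.61% of all genes were. They were Grb2 (-0.37 ± 0.11), Bag6 (-0.52 ± 0.16) and Ptpn11, the phosphatase SHP-2 that PD-1 recruits (-0.47 ± 0.15). With the antibodies edgeR and DESeq2 called 0, limma voom called 1, and 2 were higher at an unadjusted p under 0.05. In CD4 cells Ptpn6 (SHP-1) was lower with the deletion by -0.92 ± 0.17 and Prkcq higher by 0.75 ± 0.15, where 7.06% and 4.61% of all genes were. The part of macrophages and monocytes in the CD4 values of Lgals3 and Ptpn6 was not tested beyond the covariate fit.

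**Figure D5:**
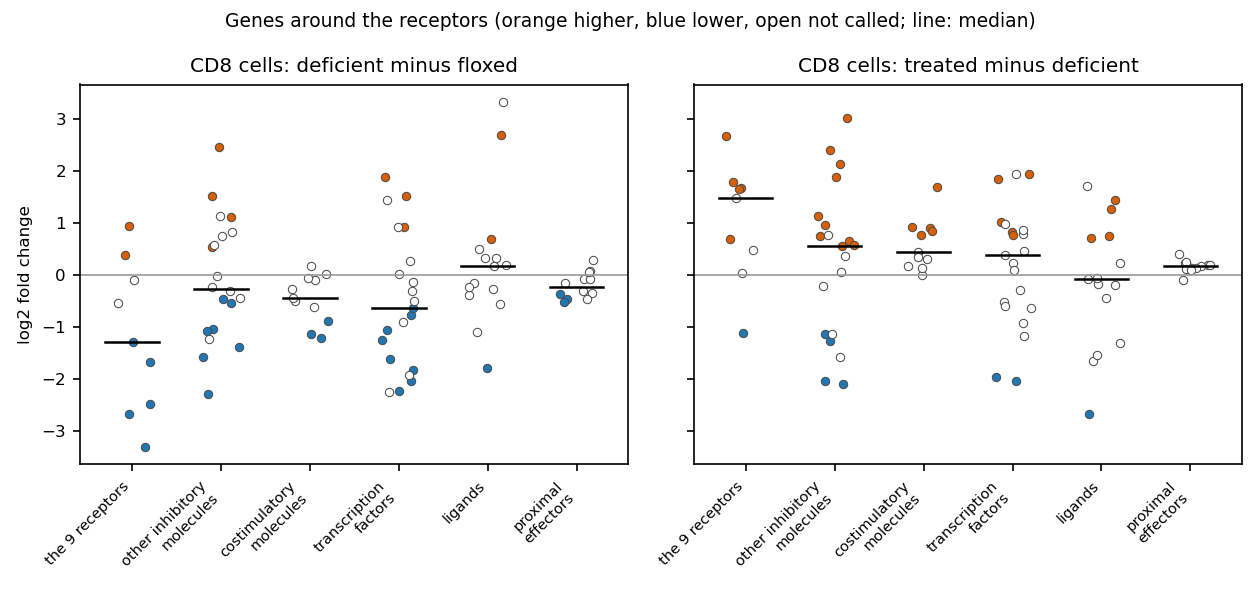
Log2 fold change of each gene in the 9 receptors and 5 related lists for the deletion (left) and the antibodies (right) in CD8 cells; filled points are called, open ones not, and lines are medians. The medians of the 9 receptors are -1.30 and 1.47.

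By the smallest root mean square difference between gene-centred log2 group means over the 6 groups, among 10699 genes, the nearest genes to Pdcd1 were Hist1h2bp (0.12), Hist1h4k (0.16) and Atp10a (0.17), and to Ctla4 Glrx (0.09), Tnfrsf4 (0.27) and Isg20 (0.28). Havcr2 was nearest to Gzmk (0.28), Rgs16 (0.34) and Dgkh (0.36). Lag3 was nearest to Lancl3 (0.23), Med12l (0.28) and Ceacam16 (0.32), and Tigit to Csf1 (0.35), Plcl1 (0.38) and L1cam (0.40). Cd160 was nearest to Cd8b1 (0.42), Mrc2 (0.44) and Klre1 (0.48). For Btla these were Lrig1 (0.11), Adk (0.12) and Tob1 (0.13), for Cd96 Ms4a4b (0.10), Rcn1 (0.16) and Kit (0.16), and for Vsir Plekhf2 (0.05), Gabarap (0.06) and Fam174a (0.06). Likeness over 6 group means is a description of these libraries.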

How the data were processed

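RNA of flow-sorted T cells was sequenced in 18 libraries, 3 in each of 6 groups taken from the labels. The authors deposited raw counts per gene model, made with featureCounts 1.5.1 with strand option 2 on the Ensembl release 87 annotation, per the file headers; STAR, DESeq2 and GRCm38 are named in the submitters' processing notes, without a version or role. IDs were matched to symbols by the reference table for 49326 of 49671 models, and 1 listed gene (Lilrb4a) was not matched. Genes were filtered with filterByExpr, leaving 14080, scaled by TMM and tested in 1 fit of the 6 groups with edgeR 4.0.16 (robust quasi-likelihood, 12 residual degrees of freedom, common biological coefficient of variation 22.9%), with Benjamini-Hochberg adjustment over all genes tested and a threshold of 0.05. DESeq2 1.42.0, limma 3.58.1, R 4.3.3 and Python 3.11.15 were also used. The fit was tested on simulated data. Depth limits the low genes, and the lowest member count was 17 (Cd160).

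The members and lists were chosen with earlier results of these data known. Named were all members, Mir155hg, Cd4 and Cd8a, up to 3 called genes per list by smallest adjusted p, and the 3 genes of most similar pattern per member. Alternatives were other scaling (RLE, pan T cell genes), filters (none, or at least 30 counts in 3 libraries), tools (DESeq2, voom), the 9 libraries of 1 cell type, marker sums as covariates, a replicate block, and leaving out each library. Same-numbered libraries deviated together (every correlation of the deviations from group means over 0.1, from 0.102 to 0.246) in 1 of 15 group pairs, treated CD8 and treated CD4 cells, so their numbers are taken as pairs there from the data, not the labels. Deficient CD8 and CD4 cells missed that threshold at replicate 2 only. Their same-numbered correlations were 0.131, 0.079 and 0.123, and those of unlike numbers were all negative. Deviations from a group mean cancel within the group, so positive same-numbered values make the others negative on balance. The negative values are thus not separate evidence of pairs. Whether these libraries pair was not settled, and the main tests used no pairs.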

Additional observations from a re-analysis of the deposited data

Results flagged for a closer look

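For 7 receptors the difference between deficient and floxed cells was not the same in CD8 and CD4 cells, by edgeR's interaction test. Over all genes tested, 6.89% were called higher and 4.72% lower, and with covariates edgeR made none of the 7 calls. The CD8 minus CD4 value on the log2 scale was -1.52 for Pdcd1, -1.60 for Ctla4, -1.59 for Havcr2, -1.94 for Lag3 and -2.99 for Tigit, and 2.26 for Cd160 and 0.95 for Vsir. Cd160 and Vsir were called lower with the deletion in CD4 cells. The floxed CD4 libraries with Cd160 at 27.3 and 30.6 CPM had Cd8a at 149.7 and 142 CPM, and the one with Cd160 at 5.72 CPM had Cd8a at 14.6 CPM. For Vsir, the floxed CD4 library with the highest level (815 CPM) had the highest macrophage and monocyte sum (27849 CPM). The covariate fit held the macrophage and monocyte sum and no CD8 marker. The part of macrophages and monocytes was not tested beyond that fit, and the part of CD8 cells was not tested.

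For 4 receptors the difference between treated and deficient cells was not the same in the cell types, at 0.92 for Pdcd1, 1.94 for Ctla4, 2.02 for Havcr2 and 2.04 for Lag3. Over all genes tested, 0.575% were called higher and 0.227% lower. The call of Ctla4 held in all 21 alternatives, those of Havcr2 and Lag3 in 13 each and that of Pdcd1 in 11. Without floxed mice given the antibodies, no comparison shows how the antibodies act on cells that have miR-155.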

How the results depend on the processing

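Of 1593 values of single receptors recomputed under the alternatives, 1445 kept their direction and side of the threshold or were uncalled before and after, 113 lost a call, 34 gained one and 1 reversed; 66 of those counted as kept were uncalled values that changed sign. The reversal was Lag3 in floxed CD8 against CD4 cells, at -0.65 with melanoma and macrophage covariates. With these covariates the receptors called numbered 2 for the CD8 deletion and 0 for the CD4 deletion. They numbered 0 for the CD4 antibodies, 1 for treated against floxed CD8 cells and 0 for treated against floxed CD4 cells. The deletion difference gave 0, and floxed CD8 against CD4 cells gave 2. Calls over all genes tested also fell in each of these comparisons, and the cause was not tested. With pan T cell scaling 0 were called for the CD4 antibodies and 1 for treated against floxed CD8 cells, with the 9 libraries of the cell type 0 and 1, with voom 1 for treated against floxed CD8 cells, and with no filter 2 for the CD4 antibodies. All genes called in these 2 comparisons split into 4 higher and 24 lower and into 97 and 365 with that scaling. With the 9 libraries they split into 9 and 8 and into 292 and 147. With voom the split was 318 and 180, and with no filter 260 and 281 of 27361 genes. Leaving out 1 library gave 6 to 7 calls for the CD8 deletion, 1 to 3 for the CD4 deletion, 6 for the CD8 antibodies, 0 to 1 for the CD4 antibodies, 0 to 3 for treated against floxed CD8 cells, 0 to 4 for treated against floxed CD4 cells, 6 to 7 for the deletion difference, 1 to 5 for the antibody difference, 7 to 9, 4 to 5 and 8 for CD8 against CD4 cells in floxed, deficient and treated samples. Over all genes, the split in these fits ran from 848 higher and 793 lower to 1297 and 1419 for the CD8 deletion. For the CD4 deletion it ran from 247 and 536 to 562 and 1022. The antibodies gave 622 and 297 to 1066 and 585 in CD8 cells, and 0 and 0 to 71 and 35 in CD4 cells. Treated against floxed cells gave 90 and 21 to 678 and 825 (CD8) and 193 and 589 to 821 and 1178 (CD4). The deletion difference gave 758 and 454 to 1026 and 857, and the antibody difference 36 and 13 to 77 and 31. CD8 against CD4 cells gave 2181 and 2560 to 2596 and 2740 in floxed samples. In deficient samples the split ran from 472 and 859 to 637 and 1108, and in treated samples from 806 and 1056 to 1040 and 1261. The replicate block lost Vsir in the CD8 deletion and gained Tigit with the CD8 antibodies and Lag3 in treated against floxed CD4 cells. A replicate block within condition, chosen after seeing the data, changed no call in treated CD8 against CD4 cells, where the numbers pair by the threshold used. It added Tigit in floxed samples and Lag3 in deficient samples, whose same-numbered correlations ran from 0.079 to 0.131.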
